A study of Mus musculus with 6 samples.

Results

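The genes examined here are 10 commonly used markers of mammary cancer stem cells: Aldh1a1, Aldh1a3, Cd44, Cd24a, Prom1, Sox2, Sox4, Sox9, Klf4 and Bmi1. They were chosen by name, and 9 of the 10, with 13 transcripts, had rows among the 13730 genes of the table. The RNA level of Prom1, which encodes the surface glycoprotein CD133, is not analysed here. No member had an adjusted p-value under 0.05 between tumors treated with sulindac sulfide (SS) and control tumors. The transcription factor genes Sox4 and Sox9 were lower in all 3 SS-treated tumors than in any of the 3 control tumors. Their means were 0.686 and 0.517 of the control mean, and 6.4% of all tested genes had groups separated in that direction. Cd44, Klf4 and Bmi1 had fold changes within 6% of 1.

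RNA was sequenced from 6 tumors of C0321, a mouse triple-negative breast cancer (TNBC) line that came from a Lfng-/- animal on the FVB background and is a single line, so that the tumors are replicates of mice and not of tumor origins. Cells in equal volumes of Matrigel and PBS had been placed in the mammary fat pad of female FVB mice aged 6 to 10 weeks. From the time a mass could be felt, 3 mice received SS, a nonsteroidal anti-inflammatory drug that also modulates the protease gamma-secretase, orally at 60 mg/kg, once daily over 14 days, and 3 mice were controls. The sample labels call the drug "Sulindac Sulfate" and the control "Control", the series description names saline, and the study's methods name sulindac sulfide and vehicle. The host mice were immunocompetent, and whole tumors were extracted, so each value sums tumor cells and host cells.

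Cancer stem cells are the tumor cells that can seed a new tumor or a sphere in culture, and in breast tissue they are usually described by a set of markers and not by a single gene. Aldehyde dehydrogenases of the ALDH1 family oxidize retinaldehyde to retinoic acid and give the enzyme activity by which such cells are sorted. High CD44 with low CD24 on the surface describes the more mesenchymal cells, whereas SOX2, SOX4, SOX9, KLF4 and BMI1 are nuclear regulators used as stem cell markers. Notch signaling, which gamma-secretase releases from the membrane, ends at the DNA-binding protein RBPJ, and the study asked whether SS acts on these cells through Notch.

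Because the drug was studied for its action on Notch, the bases before the RefSeq start were read for the RBPJ core, TGGGAA on either strand. The 250 bases before the start are shown for Sox4, of the 2 members whose SS-treated tumors all lay below the control tumors the one whose promoter was analysed, and for Bmi1 and Cd44, whose group means differed by 6% or less, with every match to the core in capitals. They lie at chr13:28953700-28953949 on the minus strand, chr2:18676768-18677017 on the plus strand and chr2:102901666-102901915 on the minus strand of GRCm38.p6, each upstream of the RefSeq start.
Sox4: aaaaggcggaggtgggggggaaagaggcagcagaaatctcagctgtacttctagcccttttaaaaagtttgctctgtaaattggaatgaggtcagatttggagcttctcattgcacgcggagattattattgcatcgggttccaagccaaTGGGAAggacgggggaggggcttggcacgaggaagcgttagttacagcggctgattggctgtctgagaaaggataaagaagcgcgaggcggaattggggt
Bmi1: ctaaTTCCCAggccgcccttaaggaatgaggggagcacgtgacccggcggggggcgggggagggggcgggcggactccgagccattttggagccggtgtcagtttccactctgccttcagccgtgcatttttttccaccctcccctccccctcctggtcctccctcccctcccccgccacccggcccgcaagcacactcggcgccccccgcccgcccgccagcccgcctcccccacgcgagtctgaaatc
Cd44: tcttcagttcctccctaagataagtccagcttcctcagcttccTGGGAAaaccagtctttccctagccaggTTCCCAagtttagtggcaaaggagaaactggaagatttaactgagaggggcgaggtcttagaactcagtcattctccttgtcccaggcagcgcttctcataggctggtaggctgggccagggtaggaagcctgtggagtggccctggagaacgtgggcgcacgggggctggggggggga
Sox4 held 1 match, from 100 to 95 bases before the RefSeq start, which lies somewhat upstream of the start of Sox4 in the deposited table, Bmi1 held 1 match, from 246 to 241 bases before it, and Cd44 held 2 matches, the farther of which began 207 bases before it. Among the members shown, the core was present both in Sox4 and in members whose groups overlapped, and 21.6% of 32851 RefSeq promoters of the same length held it. Of the other members, the farther upstream of the Prom1 promoters held 1 match, and Klf4, Sox2 and both Aldh1a1 promoters held 0. The same windows were searched on both strands for the TCF/LEF core CTTTGA, held by 13.8% of promoters, the AP-1 site TGANTCA, held by 6.75%, and the cyclic AMP response element TGACGTCA, held by 1.55%. None of these 3 was found in Sox4, Bmi1, Cd44, Klf4 or Sox2, whereas the Aldh1a1 promoter from which the measured transcript does not start held 3 TCF/LEF cores and 1 AP-1 site, and each Prom1 promoter held 1 AP-1 site. Promoters of Sox9, Aldh1a3 and Cd24a were not analysed here. A match is a description of letters and was not tested as a binding site.

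The deposited table held estimated counts, which summed to between 8468948 and 24441553 per tumor. Levels are given as CPM, the counts scaled to a common library size with factors from the trimmed mean of M-values (TMM). A count of 3, used as the limit for a gene at 0, is 0.123 to 0.354 CPM in these libraries, and such limits cover counting error only. Checked against the TNBC label, Vim, a mesenchymal filament gene, was at 5875 to 8620 CPM and Epcam, an epithelial adhesion gene, at 0.0410 to 2.98 CPM, Esr1, the estrogen receptor gene, was at 4.48 to 6.40 CPM, Pgr, the progesterone receptor gene, at 0 to 3.82 CPM and Erbb2, which encodes HER2, at 17.1 to 22.4 CPM. Lfng itself was at 4.65 to 6.40 CPM, and the host mice carry the intact gene. The summed level of 9 skeletal muscle genes differed widely among tumors, from 339 CPM in SS tumor 1 to 24015 CPM in SS tumor 2, and the summed level of 8 adipocyte genes was highest in control tumor 1, at 363 CPM, and in SS tumor 2, at 195 CPM, against 10.9 to 58.3 CPM in the other 4. Nothing in the labels ties a tumor to a batch.

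Groups were compared by the quasi-likelihood test of edgeR, adjusted by Benjamini-Hochberg over the 10902 genes left by its minimum on counts. In that test 0 genes, or 0%, had an adjusted p-value under 0.05, and 693 genes, or 6.36%, had an unadjusted p-value under 0.05. DESeq2 gave 37 genes of 12638 with an adjusted p-value under 0.05, or 0.293%. Of the 9 members, 7 passed the filter and 2, Aldh1a1 and Aldh1a3, did not. None of the 7 had an adjusted p-value under 0.05 in edgeR or, with the 2 others, in DESeq2. Sox4 and Sox9 had an unadjusted p-value under 0.05, both with lower values in SS-treated tumors, where 3.16% of all tested genes were called in that direction. The 2 groups did not overlap for the same 2 members, against 12.9% of tested genes in either direction and 6.4% with the SS-treated tumors lower. The median log2 fold change was 0.0075 over the 7 tested members and -0.0013 over all tested genes. Members are not independent replicates, and the 7 are those with enough counts, so these counts describe them only.

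**Figure D1:**
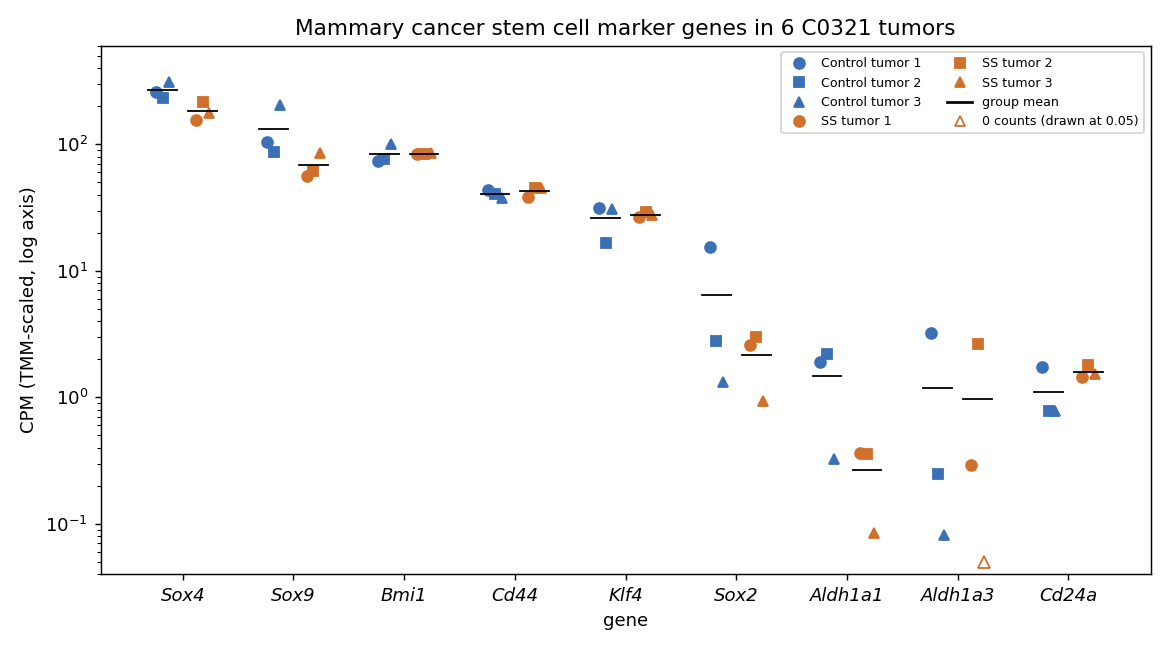
Level of the 9 members in each tumor, in TMM-scaled CPM on a log axis, with blue symbols for control and orange symbols for SS-treated tumors, a shape for each tumor number, and a bar at each group mean. The orange symbols lie below all blue symbols for Sox4 and Sox9, and the groups overlap for the other 7 genes, where the value of 0 for Aldh1a3 in SS tumor 3 is drawn as an open symbol at 0.05.

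Per kilobase of transcript, on which scale genes can be compared, Sox4 was the highest member, with a mean level of 76.3 CPM per kb (SD 18.9, n = 6). That level used a length of 2953 bases. With the annotated length of 4795 bases and no TMM factors, 91.8% of 13545 genes were below Sox4. Sox9 followed at 24.2 CPM per kb (SD 12.96), and Bmi1 at 23.4 (SD 2.65) did not differ from it beyond their spread, since Bmi1 was below Sox9 in only 2 of 6 tumors. Their order differed between groups, with Sox9 at 31.9 and Bmi1 at 23.4 CPM per kb in the control tumors, against 16.5 and 23.5 in the SS-treated tumors, in all 3 of which Bmi1 was the higher. Cd44 was at 15.1 CPM per kb (SD 1.14) and Klf4 at 8.93 (SD 1.79), and each was below the member above it in all 6 tumors. The last 4 members were near or below the middle of all genes. Sox2 was at a mean of 1.76 CPM per kb, Cd24a at 0.740, Aldh1a1 at 0.426 and Aldh1a3 at 0.314, and the ranges of neighbours in this order overlapped. The highest value among the tumors was in control tumor 1 for 3 members, in control tumor 3 for 3 members, and in each of control tumor 2, SS tumor 2 and SS tumor 3 for 1 member.

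The aldehyde dehydrogenases that define ALDH-positive mammary cells were scarce. Aldh1a1, at chr19:20601982-20643463 on the plus strand, encodes the cytosolic retinaldehyde dehydrogenase after which the ALDH1 activity is named. Control tumors 1, 2 and 3 had 24, 45 and 8 counts of it, and SS tumors 1, 2 and 3 had 5, 3 and 1, or 1.90, 2.21 and 0.328 CPM against 0.363, 0.358 and 0.0845 CPM. Control tumors 1 and 2 were the highest, but control tumor 3 lay within the range of the SS-treated tumors, so the groups overlapped. The gene did not pass the filter on low counts. Fitted without the filter, edgeR put it at -2.43 on the log2 scale (SE 0.95, 95% interval -4.62 to -0.25, adjusted p = 0.828) and DESeq2 at -2.47 (adjusted p = 0.640). The exact two-sided permutation test over tumors gave p = 0.3, where 0.1 is the smallest that 3 against 3 tumors allow. At 1 to 45 counts per tumor, the direction of Aldh1a1 rests on few reads.

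Aldh1a3, at chr7:66390893-66427478 on the minus strand, encodes the isoform to which much of the ALDH activity of human breast tumor cells is attributed. Control tumors 1, 2 and 3 had 41, 5 and 2 counts of it, and SS tumors 1, 2 and 3 had 4, 22 and 0, or 3.24, 0.246 and 0.0821 CPM against 0.290, 2.62 and 0 CPM. One tumor of each group, control tumor 1 and SS tumor 2, stood far above the other 4, and the groups overlapped. The 0 in SS tumor 3 allows a level of up to 0.249 CPM. The fit without a filter put it at -0.29 on the log2 scale (SE 1.62, 95% interval -4.04 to 3.45, adjusted p = 0.985), and the exact two-sided permutation test gave p = 0.8.

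Aldh1a3 varied the most among the members, with an SD of 1.93 in log2 CPM over the 6 tumors. The 3 tested genes whose centred log2 CPM differed least from its own were Cadm3, with a root mean square difference of 0.405 over 6 tumors, Igfbp5, with 0.561, and Erbb3, with 0.565. Control levels of Cadm3, a cell adhesion gene, were 7.67, 0.836 and 0.410 CPM, and levels after SS were 0.798, 10.1 and 0.507. Igfbp5, which encodes an insulin-like growth factor binding protein, was at 71.9, 16.1 and 6.85 CPM against 26.3, 61.2 and 6.00 CPM. Erbb3, a receptor of the EGFR family, was at 15.3, 2.31 and 1.03 CPM against 6.24, 15.9 and 0.592 CPM. All 3 were highest in control tumor 1 and SS tumor 2, as Aldh1a3 was, which follows from how they were chosen. The luminal keratin gene Krt19 was also highest there, at 229, 10.8 and 4.51 CPM without and 121, 306 and 11.6 CPM with SS, as were the tight junction gene Cldn7 and the epithelial splicing factor gene Esrp1, whose values ranged from 0 to 5.96 CPM. These 3 were chosen after their values were seen, and other epithelial genes differed from them: Krt7 and Krt18 were highest in control tumor 2 and lowest in SS tumor 2, at 245 and 59.5 CPM there. Over the 12 epithelial markers, the highest value was in control tumor 1 for 3, in control tumor 2 for 3, in control tumor 3 for 2 and in SS tumor 2 for 4. Of the 12 mammary epithelial markers, all had rows, and their summed level was 935 to 1249 CPM in the control tumors and 780 to 1179 CPM in the SS-treated tumors, most of it Krt8, Krt7, Krt18 and Krt19. The basal keratin gene Krt5 varied widely, at 73.1, 1.13 and 1.44 CPM without and 33.9, 26.7 and 0 CPM with SS. Another basal keratin gene, Krt14, ranged from 6.44 to 45.8 CPM, and the alveolar gene Elf5 from 0 to 2.85 CPM. The adipocyte sums given above were highest in the same 2 tumors. The part of these cell types in the level of Aldh1a3 was not tested.

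Of 16 other aldehyde dehydrogenase genes, 13 were tested, and none had an unadjusted p under 0.05 in edgeR in either direction. Their median log2 fold change was -0.08, and it ranged from -0.25 without control tumor 2 to -0.02 without SS tumor 3 when 1 tumor was left out. The highest by level were Aldh2, the mitochondrial acetaldehyde dehydrogenase, with a log2 fold change of -0.25 (SE 0.13), and Aldh1a2, another retinaldehyde dehydrogenase, with 0.08 (SE 0.48). Control levels of Aldh1a2 were 20.2, 58.5 and 35.0 CPM and those with SS were 67.9, 30.2 and 22.2 CPM, with the highest value in SS tumor 1, the lowest in control tumor 1 and overlapping groups. Of 14 genes of retinoic acid binding, synthesis, breakdown and reception, 12 were tested and 0 had an unadjusted p under 0.05 in either direction, with a median of -0.10, or -0.16 without control tumor 1 and 0.0077 without control tumor 3. The receptor gene Rara had a log2 fold change of -0.05 (SE 0.13).

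For the surface markers, no difference beyond the spread between tumors was detected. Cd44, at chr2:102811142-102901666 on the minus strand, encodes the receptor for hyaluronan, a sugar polymer of the extracellular matrix. It was at 43.2, 40.5 and 37.5 CPM in control tumors 1, 2 and 3 and at 38.4, 45.0 and 45.0 CPM in SS tumors 1, 2 and 3. The 6 values lay close together and the groups overlapped. Its log2 fold change was 0.08 (SE 0.13, 95% interval -0.21 to 0.38, adjusted p = 0.930), so changes of more than 0.38 up or 0.21 down on the log2 scale lie outside its interval.

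The table split Cd44 into 5 RefSeq transcripts, which share both ends and differ in exons. The form with 9 exons and 1095 coding bases, the standard form of CD44, held 42.3, 38.9 and 34.4 CPM among controls and 37.1, 41.0 and 42.6 CPM among SS-treated tumors. The 4 longer forms, which carry variant exons, together took 2.19%, 3.93% and 8.11% of the Cd44 counts among controls, against 3.30%, 8.84% and 5.35% among SS-treated tumors. The standard form thus held over 91% of the counts in each tumor, and the share of variant forms was highest in 1 tumor of each group, control tumor 3 and SS tumor 2. The longest form, with 19 exons, was assigned 18.3 counts in SS tumor 2, 9.64 in control tumor 3 and under 1 count in each of the other 4 tumors. These are estimates, since reads from shared exons fit several forms. The share of such reads was not measured, and no test was run on the forms.

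**Figure D2:**
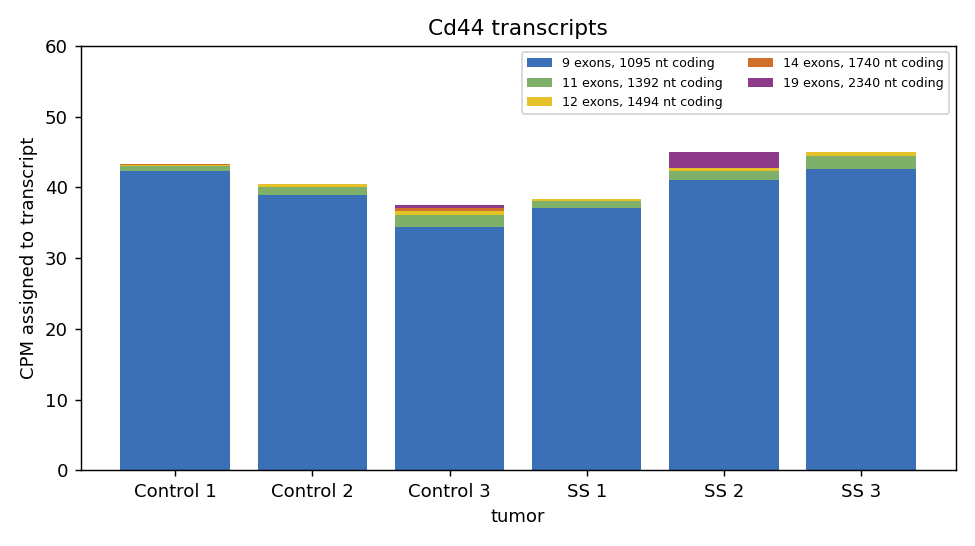
Level of the 5 Cd44 transcripts in each tumor as stacked bars, in CPM from 0, colored by the number of exons and the coding length. The 9-exon form fills nearly the whole bar in all 6 tumors, and the 19-exon form is visible in control tumor 3 and SS tumor 2.

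Cd24a, at chr10:43579169-43584266 on the plus strand, encodes the small anchored glycoprotein CD24. It was at 1.74, 0.786 and 0.780 CPM in control tumors 1, 2 and 3 and at 1.45, 1.79 and 1.52 CPM in SS tumors 1, 2 and 3, from 15 to 22 counts per tumor. Control tumors 2 and 3 were the lowest, while control tumor 1 lay within the SS range. SS over control gave a log2 fold change of 0.54 (SE 0.52, 95% interval -0.67 to 1.75, adjusted p = 0.898), and without control tumor 1 it was 1.01, also short of an unadjusted p of 0.05. Copies of Cd24a elsewhere in the genome could take part of its reads, so its level is uncertain. Per kilobase, Cd44 exceeded Cd24a by a ratio of 16.2, 34.0 and 32.2 without SS, against 17.4, 16.2 and 19.8 with SS. By the counted reads, every tumor had far more Cd44 than Cd24a RNA, with overlapping groups. Reads lost to copies of Cd24a were not measured, and a ratio in whole tumors does not count the cells that carry either protein.

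Of 19 genes that make, cut or bind CD44 and its ligands or CD24, 16 were tested, and 1 had an unadjusted p under 0.05 in edgeR. It was Has2, a hyaluronan synthase gene, with 19.8, 11.99 and 17.8 CPM without and 9.07, 12.8 and 6.68 CPM with SS. SS tumor 2 exceeded control tumor 2, so the groups overlapped, and the log2 fold change was -0.80 (SE 0.29, adjusted p = 0.771). The median over the 16 was -0.04, and leaving out SS tumor 2 or SS tumor 1 gave -0.16 or 0.02.

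The 3 SOX genes had the most negative fold changes among the tested members. Sox4, at chr13:28950730-28953683 on the minus strand, is a single-exon gene for a transcription factor that acts in progenitors and in the transition from an epithelial to a mesenchymal state. It was at 259, 231 and 311 CPM in control tumors 1, 2 and 3 and at 156, 216 and 178 CPM in SS tumors 1, 2 and 3. Each SS-treated tumor was below each control tumor, and the closest pair was SS tumor 2 and control tumor 2. The group levels were 267 ± 40.7 CPM and 183 ± 30.1 CPM (SD, n = 3 each). The log2 fold change was -0.54 (SE 0.16, 95% interval -0.91 to -0.18), with an unadjusted p of 0.00884. The adjusted p of Sox4 in edgeR was 0.771. In DESeq2 the difference was -0.55 with adjusted p = 0.162, within a range of 0.162 to 0.989 over all settings tried. The exact two-sided permutation test on Sox4 gave p = 0.1, the smallest it can give. In bulk RNA, fewer Sox4-expressing cells and less Sox4 RNA per cell cannot be told apart.

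Sox9, at chr11:112782210-112787758 on the plus strand, has 3 exons and encodes a transcription factor of mammary luminal progenitors and of cartilage. It was at 105, 87.5 and 203 CPM in control tumors 1, 2 and 3 and at 56.7, 62.0 and 85.8 CPM in SS tumors 1, 2 and 3. Control tumor 3 was the highest by far, and SS tumor 3 came within 2 CPM of control tumor 2, but the groups did not overlap. The group levels were 132 ± 62.5 CPM and 68.2 ± 15.5 CPM (SD, n = 3 each). For Sox9 the log2 fold change was -0.95 (SE 0.32, 95% interval -1.70 to -0.21), with an unadjusted p of 0.0185. Its adjusted p was 0.771 in edgeR and 0.180 in DESeq2, within a range of 0.180 to 0.989 over all settings. The exact two-sided permutation test on Sox9 gave p = 0.1. Control tumor 3 decided the size of this difference, since the log2 fold change was -0.49 without it. The unadjusted p of Sox9 was above 0.05 without SS tumor 1, without SS tumor 2 and with quantile normalization, whereas that of Sox4 stayed under 0.05 in all 17 fits.

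Sox4 and Sox9 did not keep 1 ratio among tumors. Per kilobase, Sox4 exceeded Sox9 by 3.47, 3.70 and 2.14 without SS, against 3.86, 4.87 and 2.91 with SS, with overlapping groups. The epithelial keratin genes Krt18 and Krt7 had an unadjusted p under 0.05 in the same direction, with log2 fold changes of -0.50 (SE 0.12) and -0.51 (SE 0.19), 2 of 12 epithelial markers tested. None of 10 tested mesenchymal or fibroblast markers did, and their summed level was 24883 to 31583 CPM in the control tumors and 19733 to 31173 CPM in the SS-treated tumors. Red cell genes were lower at an unadjusted p under 0.05 in 4 of 5 tested, with sums of 1892 to 3927 CPM against 853 to 1934 CPM, and the endothelial genes Esam and Vwf, 2 of 7 tested, were higher, with sums of 79.7 to 129 CPM against 109 to 199 CPM. Summed leukocyte markers were at 917 to 1071 CPM against 1020 to 1214 CPM, with 0 of 5 tested at an unadjusted p under 0.05, as for 0 of 8 macrophage, 0 of 3 neutrophil, 0 of 1 T cell, 0 of 4 adipocyte and 0 of 9 skeletal muscle genes. No B cell gene passed the filter on low counts, and of the 2 with rows Pax5 was at 14.2, 1.23 and 0.123 CPM in control tumors 1, 2 and 3 and at 0 in each SS-treated tumor, where a count of 0 allows up to 0.219 to 0.354 CPM. The part of these cell types in the levels of Sox4 and Sox9 was not tested. A fit added after seeing the data left out both control tumor 1 and SS tumor 2, the tumors with the highest adipocyte sums. Its log2 fold change was -0.70 for Sox4 and -1.03 for Sox9. SS tumor 2 also had the highest Sox4 of the SS-treated tumors, at 216 CPM, and Sox4 was at -0.68 without that tumor alone. This fit therefore cannot isolate the part of adipocytes.

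**Figure D3:**
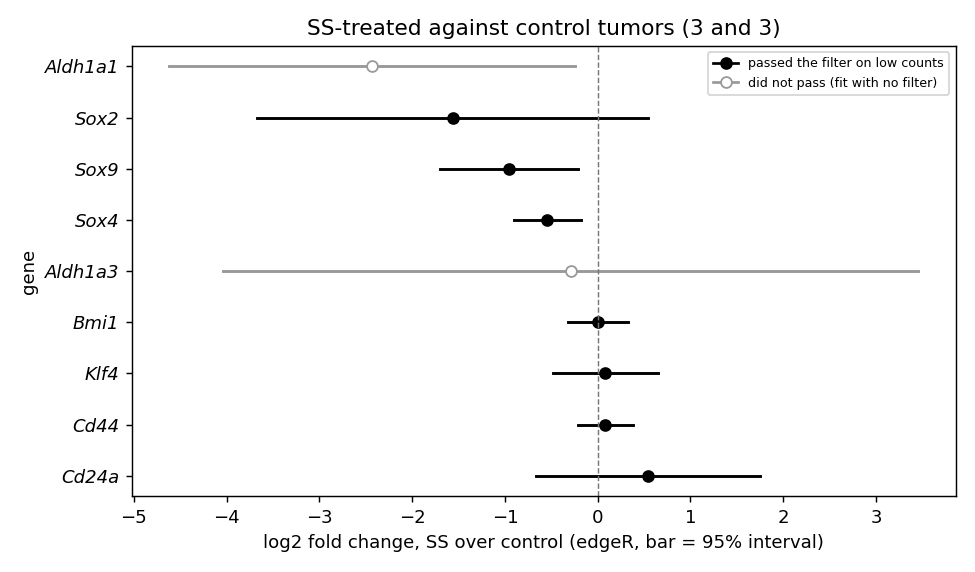
Log2 fold change of each member, SS-treated over control tumors, with its 95% interval from edgeR, filled for the 7 tested genes and open for the 2 genes fitted without the filter on low counts. Among the tested genes, the intervals of Sox4 and Sox9 lie below 0, and the interval of Sox2 runs from -3.67 to 0.54.

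Sox2, at chr3:34649995-34652461 on the plus strand, is a single-exon gene for a pluripotency factor. It was at 15.3, 2.80 and 1.31 CPM in control tumors 1, 2 and 3 and at 2.61, 2.98 and 0.930 CPM in SS tumors 1, 2 and 3. Control tumor 1 stood alone, and the other 5 tumors overlapped. The log2 fold change was -1.56 (SE 0.91, 95% interval -3.67 to 0.54, adjusted p = 0.818), the most negative of the tested members, but without control tumor 1 it was 0.07, and without control tumor 1 and SS tumor 2 together it was -0.21. Without control tumor 3 the log2 fold change of Sox2 was -2.05, and Sox2 and Aldh1a1 then joined Sox4 and Sox9 at an unadjusted p under 0.05. In that fit 520 of 11342 tested genes had an unadjusted p under 0.05.

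Of 15 other SOX genes, 10 were tested and 0 had an unadjusted p under 0.05 in either direction in edgeR. Control tumor 1 held the highest value for 7 of the 15, among them Sox1, Sox3, Sox8 and Sox10, none of which exceeded 8.62 CPM in any tumor. The 2 highest by level were Sox18, a regulator of blood and lymph vessels, with a log2 fold change of 0.67 (SE 0.30, adjusted p = 0.776), and Sox12, with 0.32 (SE 0.23). The median over the 10 was 0.38, and it was -0.38 when genes with low counts were kept, so the sign of the median changed with the filter. With 1 tumor left out the median ranged from 0.08 without control tumor 3 to 0.59 without control tumor 1, and it was 0.13 with all libraries thinned to the smallest.

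Klf4 and Bmi1 were nearly level between groups. Klf4, at chr4:55527137-55532476 on the minus strand, encodes a zinc finger factor that is also a pluripotency factor. It was at 31.5, 16.7 and 30.8 CPM in control tumors 1, 2 and 3 and at 26.5, 29.1 and 27.8 CPM in SS tumors 1, 2 and 3. The SS-treated tumors lay between the lowest and the highest control tumor. The log2 fold change was 0.08 (SE 0.24, 95% interval -0.49 to 0.65, adjusted p = 0.963), and it was -0.16 without control tumor 2. Of 16 other KLF genes, 14 had rows and 12 were tested, of which 0 had an unadjusted p under 0.05 in either direction, with a median of -0.19. That median was -0.0069 without SS tumor 1, -0.02 without control tumor 1, -0.24 without control tumor 2, -0.08 with quantile normalization and -0.04 with thinned libraries. Klf6, the highest, had a log2 fold change of -0.32 (SE 0.16), and Klf7 had 0.0018 (SE 0.15).

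Bmi1, at chr2:18677018-18686630 on the plus strand, encodes a subunit of Polycomb repressive complex 1, which ubiquitinates histone H2A and silences cell cycle inhibitor genes. It was at 74.3, 76.3 and 101 CPM in control tumors 1, 2 and 3 and at 84.4, 83.2 and 85.7 CPM in SS tumors 1, 2 and 3. The SS-treated tumors differed from each other by under 3 CPM and lay inside the control range. Its log2 fold change in SS-treated tumors was 0.0075 (SE 0.14, 95% interval -0.32 to 0.33, adjusted p = 0.994). All genes of a list of 19 were tested, which held other subunits and partners of the complex and, as its only other entry, the known target Cdkn2a, and 0 had an unadjusted p under 0.05 in either direction, with a median of -0.03, and leaving out SS tumor 2 or SS tumor 1 gave -0.11 or 0.07. The 2 highest were Phc2, with a log2 fold change of 0.05 (SE 0.15), and Rnf2, which encodes a ubiquitin ligase subunit, with -0.20 (SE 0.19).

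**Figure D4:**
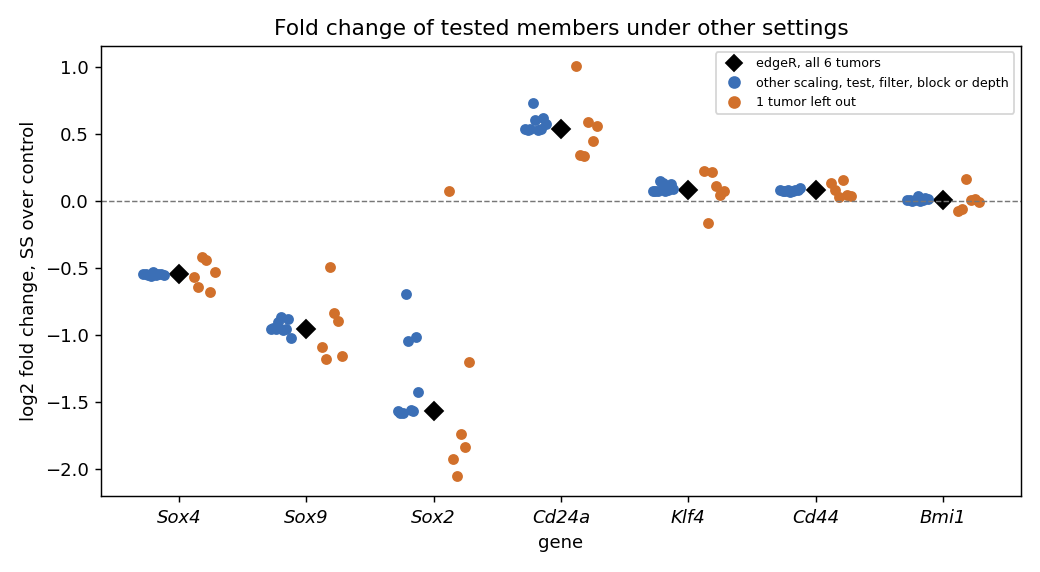
Log2 fold change of the 7 tested members with all 6 tumors (black), under 9 other settings of scaling, test, filter, block or depth (blue), and with 1 tumor left out in turn (orange). All points of Sox4 and Sox9 lie below 0, from -0.68 to -0.42 and from -1.18 to -0.49 with 1 tumor left out, whereas Sox2, Klf4 and Bmi1 have points on both sides.

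Among 31 other genes used as markers of stem or progenitor cells, 27 had rows and 21 were tested, and 2 had an unadjusted p under 0.05 in edgeR, both lower in SS-treated tumors. Lgr6, a receptor for R-spondins, was at 2.21, 8.31 and 9.89 CPM in control tumors 1, 2 and 3 and at 1.67, 0.119 and 1.94 CPM in SS tumors 1, 2 and 3. The groups did not overlap, though control tumor 1 and SS tumor 3 were close, and the log2 fold change was -2.41 (SE 0.82, adjusted p = 0.771). Myc was at 41.5, 44.3 and 49.2 CPM against 32.9, 39.9 and 36.0 CPM, also without overlap, with a log2 fold change of -0.31 (SE 0.13, adjusted p = 0.771). The median over the 21 was -0.19, and leaving out SS tumor 2 or SS tumor 1 gave -0.25 or -0.11. Over the 7 lists of related genes, 3 of 103 tested genes had an unadjusted p under 0.05, against 6.36% of all genes tested, and none had an adjusted p under 0.05 in edgeR or DESeq2.

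**Figure D5:**
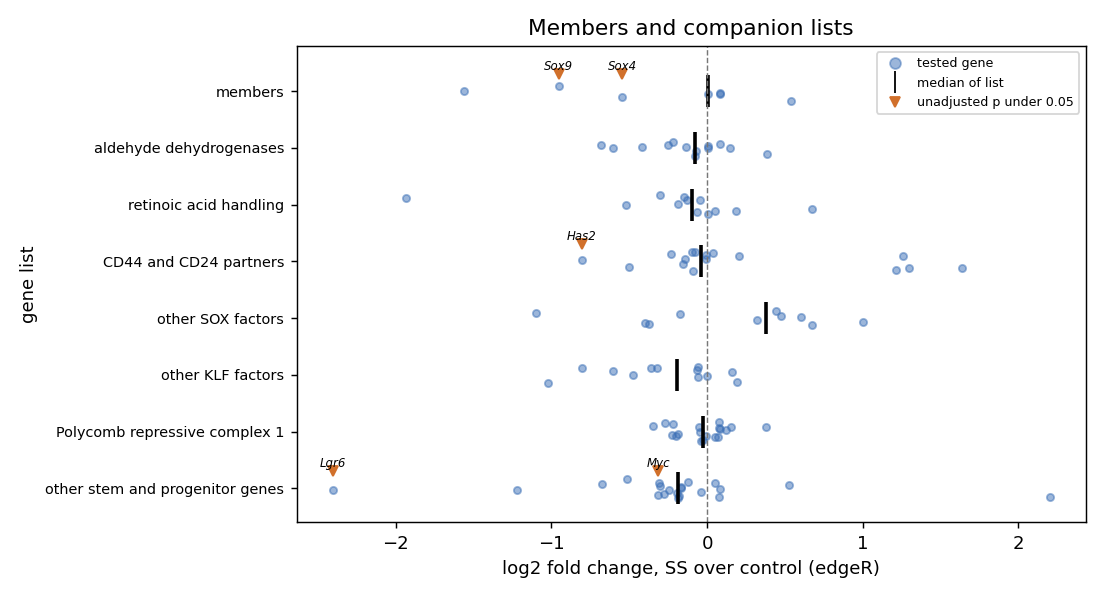
Log2 fold change, SS-treated over control tumors, of the tested members and of the tested genes in each list of related genes, 1 point a gene, with a black bar at each median and an orange triangle above each gene with an unadjusted p under 0.05. The 5 marked genes, Sox4, Sox9, Has2, Lgr6 and Myc, all lie below 0.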

How the data were processed

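Polyadenylated RNA of 3 control and 3 SS-treated tumors was read from both ends, 75 nucleotides each, in stranded libraries. Values deposited by the authors are estimated counts for each RefSeq transcript, not normalized and already cleared of weakly expressed entries. Each of the 20648 transcripts had at least 10 counts over the 6 tumors. The submitters' processing notes name CASAVA 1.8.1, Bowtie2 2.2.5, STAR 2.5.3a and mm10, whose coordinates are given here. The counting tool is not given in the sources used here.

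Gene symbols that the table held as dates, 21 in all, were restored. Counts were summed per symbol, rounded, and compared in edgeR 4.0.16 (R 4.3.3) by the quasi-likelihood test after TMM scaling and filterByExpr, with p-values adjusted by Benjamini-Hochberg over all genes tested. Standard errors and 95% intervals belong to that fit. The script was tested on simulated data. CPM per kb used transcript lengths of the reference annotation, or the span in the table for Sox2 and Sox4. Ranks among all genes used annotated lengths for every gene and no TMM factors. With 3 tumors per group, p-values measure the spread between these mice. Totals of 8468948 to 24441553 counts make low genes imprecise.

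The members and lists were chosen with earlier results of these data known. Named beside the members were, from each list, up to 4 genes with an unadjusted p under 0.05 or otherwise the 2 highest by level, and the 3 genes closest in pattern to the most variable member. Some results that this rule would name are not reported here. Cell type markers and the genes Sox1, Sox3, Sox8, Sox10, Cldn7 and Esrp1 were named after their values had been seen. Alternatives were RLE and upper-quartile scaling, DESeq2 1.42.0, limma-voom and quantile normalization with limma 3.58.1, as the study's methods normalize by quantiles, another and no filter, thinning to the smallest library, the replicate number as a block, and leaving out each tumor. Leaving out control tumor 1 and SS tumor 2 together was added after seeing the data. Same-numbered tumors are from different mice, and their deviations correlated by 0.116, 0.0205 and 0.0767, so the numbers were not taken as pairs.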

Additional observations from a re-analysis of the deposited data

How the results depend on the processing

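No member had an adjusted p-value under 0.05 in any of the 17 fits. Over the whole table, edgeR with the TMM, RLE or upper-quartile scaling, limma and every fit with a tumor left out gave 0 genes with an adjusted p under 0.05, and DESeq2 gave 37, the cause of which was not tested. The count of members at an unadjusted p under 0.05 was 2 in the main analysis, 1 with quantile normalization and between 1 and 4 with 1 tumor left out. It was 3 with DESeq2 and without a filter, where Aldh1a1 joined. Over all genes tested, 693 of 10902 were at that level in the main analysis and 642 of 10902 with quantile normalization. With DESeq2 it was 836 of 13703 genes, and without a filter 789 of 13730. Without control tumor 3, the fit with 4 members, it was 520 of 11342 genes. With the replicate number as a block, a pairing that the labels do not state, 643 genes had an unadjusted p under 0.05 in place of 693, 2 members were called, and no adjusted call changed; the log2 fold change was -0.55 for Sox4 and -0.88 for Sox9.

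The sign of 3 members turned. With 1 tumor left out, Sox2 ranged from -2.05 to 0.074, Klf4 from -0.16 to 0.23 and Bmi1 from -0.073 to 0.17 on the log2 scale. Bmi1 was also at -0.0012 without a filter and at -0.065 without control tumor 1 and SS tumor 2 together. With all 6 tumors none of these 3 had an unadjusted p under 0.05, and Sox2 did without control tumor 3. The medians of the lists of related genes moved with single tumors as given beside each, and those of the retinoic acid, CD44 and CD24, and Polycomb lists took both signs. The sign of Sox4, Sox9, Cd44 and Cd24a was the same in all 17 fits. With a tumor left out the remaining 2 tumors of a group carry its spread, and depth limits Aldh1a1, Aldh1a3 and Cd24a, which had at most 45 counts in any tumor.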
